A study of Mus musculus with 2 samples.

Results

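The genes described here are those of the proteins of the cytosolic ribosome in the mouse heart 3 days after myocardial infarction. They were taken by symbol from the annotation of the array: Rpl or Rps followed by a number, the Rplp genes and Rpsa, without the Rps6k kinases and the pseudogene symbols, and only where a probe set (the group of probes that reports 1 transcript) carried a single symbol. This gave 106 of 45101 probe sets, for 50 of the 18193 genes that the array names singly. The hearts came from male C57BL/6J mice, 10 weeks old, in which the left anterior descending artery had been tied off for good, or which had the same surgery without the tie (sham). Each group was a single pool, made from the hearts of 3 mice and measured on 1 array. There were thus 2 arrays, no replicates and no test, and every difference is between these pools and not between conditions. Values are log2 values after RMA normalization, and differences are infarct minus sham, so that 1 stands for 2-fold.

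A cytosolic ribosome consists of a small subunit, which reads the mRNA, and a large subunit, which joins amino acids and holds the tunnel through which the new chain leaves. The subunits are built in the nucleolus from ribosomal RNA and from proteins made in roughly equal numbers, and the mRNAs of these proteins carry a tract of pyrimidines at their start, which couples their translation to growth signals through mTOR. Hypertrophic growth of cardiomyocytes and the division of other cells both call for more ribosomes. Some ribosomal proteins have paralogs with a narrower pattern of expression, of which Rpl3l, the form of Rpl3 in striated muscle, is the best known in the heart.

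To show what these genes share at their starts, and where Rpl3l differs, stretches of 80 bases of the coding strand are given from RefSeq promoters of the assembly GRCm38.p6. The first 5 run from base -50 to base 30 around the annotated start, with no base 0, and the last, from a second annotated start of Rpl3l, ends before that start. Capitals mark a run of at least 10 pyrimidines, the ETS-type motif CCGGAAG or, in the last stretch, a match to the MEF2 motif. Rpl14 is shown for the largest positive difference, Rpl22l1 for the largest among paralogs, Rpl11 and Rps18 as members of either subunit, and Rpl3l as the only compared gene that was lower in the infarct pool on the deposited scale.
Rpl14, chr9:120571467-120571546, plus strand: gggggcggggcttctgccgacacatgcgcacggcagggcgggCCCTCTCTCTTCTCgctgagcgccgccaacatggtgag
Rpl22l1, chr3:28805458-28805537, plus strand: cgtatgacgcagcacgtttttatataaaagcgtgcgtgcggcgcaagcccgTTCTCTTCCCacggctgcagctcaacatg
Rpl11, chr4:136053364-136053443, minus strand: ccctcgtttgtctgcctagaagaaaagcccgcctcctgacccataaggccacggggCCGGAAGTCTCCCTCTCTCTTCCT
Rps18, chr17:33955636-33955715, minus strand: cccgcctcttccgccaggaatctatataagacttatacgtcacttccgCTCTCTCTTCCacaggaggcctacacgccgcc
Rpl3l, start 1, chr17:24727776-24727855, plus strand: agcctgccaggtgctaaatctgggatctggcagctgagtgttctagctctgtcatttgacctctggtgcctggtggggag
Rpl3l, start 2, chr17:24732535-24732614, plus strand: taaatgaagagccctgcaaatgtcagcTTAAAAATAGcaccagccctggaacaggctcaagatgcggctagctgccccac

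Promoters of 300 bases were found for 44 of the 50 genes, 52 promoters in all. A pyrimidine run of at least 10 bases on the coding strand, within the last 100 bases of the promoter, was present in 57.7% of them and in 18.1% of the 32851 promoters of all genes. With both strands searched over the whole promoter, CCGGAAG was held by 40.4% (8.86% of all promoters), ATGGCG, the core of the YY1 motif, by 30.8% (8.93%) and the GC box GGGCGG by 53.8% (35.7%). The shares of the other motifs were, for members against all promoters, those of TATAA (26.9% against 24.9%), CCAAT (26.9% against 37.4%), the TEAD motif CATTCC (9.62% against 14.7%), the GATA-type motif AGATAA (5.77% against 11.2%), the CRE motif TGACGTCA (3.85% against 1.79%) and the CArG box of SRF (1.92% against 1.63%). The promoters of Rpl3l held neither the pyrimidine run nor the ETS-type motif, the YY1 core or the GC box. They held AGATAA and the MEF2 motif, and Rpl3l was the only member gene with the latter (1.92% of member promoters, 3.19% of all). These are matches of letters in fixed windows, chosen for search after the values of the genes were known.

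On the deposited scale nearly all ribosomal protein genes were slightly higher in the infarct pool, and by similar amounts, although with housekeeping genes as zero most were slightly lower. Of the 50 genes, 48 were bright enough to be compared, which meant that the probe set standing for the gene, its brightest, was no dimmer than the array median in either or both pools. Their median difference was 0.31, beside 0 over all 11961 genes compared, and 47 of the 48 lay above 0, beside 49.5% of all genes. At least 0.25 higher were 30 of them (62.5%, beside 25.9% of all genes). Larger differences were about as common as elsewhere: 7 members (14.6%) were at least 0.5 higher, beside 12.7% of all genes, and none was at least 1 higher, beside 3.73%. A single member, Rpl3l, was at least 0.5 lower, beside 8.72% of all genes, and also at least 1 lower, beside 1.26%. The list is therefore marked by a small shift of most members and not by large differences of single ones.

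The sign of that shift depends on where the zero of the scale is set. After centring the arrays on the mean of 10 housekeeping genes, none of them ribosomal, the median of the members was -0.060 and 12 of 48 lay above 0. With zero set by the hybridisation controls, which are foreign transcripts spiked into the hybridisation mix, the median was 0.62 and 39 were at least 0.5 higher. The median of all genes was -0.37 with the housekeeping genes and 0.32 with the hybridisation controls as zero. The shares of all genes past these limits were not counted under either. The housekeeping genes themselves differed by 0.37 on average, with a median of 0.32, and ran from -0.44 (Sdha) to 1.12 (Gusb). Next below Gusb was Actb with 0.82, while the other bright probe set of Actb gave -0.62. No centring was run without single housekeeping genes, so how far the sign of the members' median rests on Gusb and Actb was not tested. The hybridisation controls differed by -0.32 and the added poly-A transcripts by 0.057. Since these centrings shift all genes alike, the distance of 0.31 between the members' median and that of all genes was the same in each of them. It was 0.35 after quantile normalization and 0.32 after removal of a loess trend, and 97.9% of the members lay above the median of all genes in every scaling run.

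**Figure D1:**
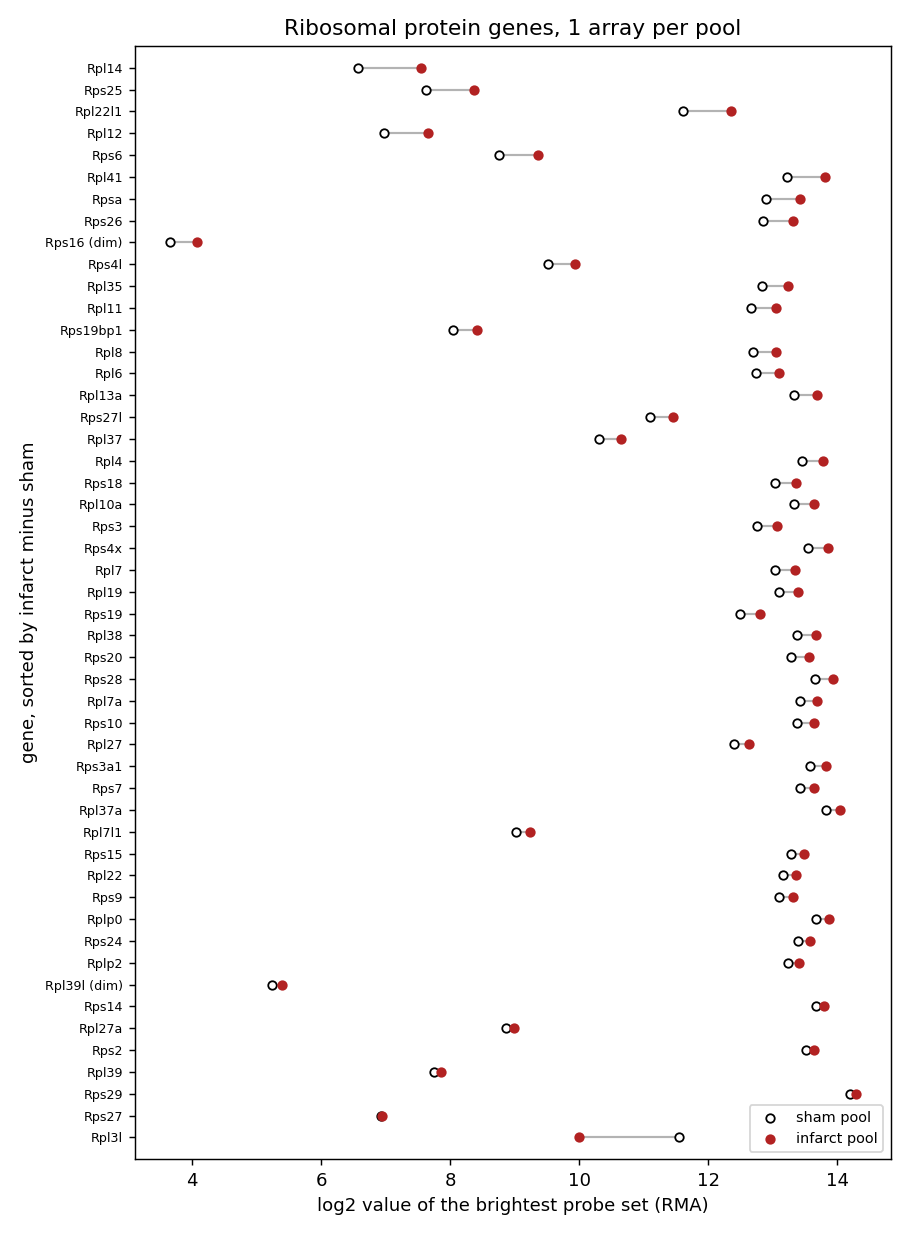
Log2 value of the brightest probe set of each of the 50 ribosomal protein genes for the sham (open circles) and infarct (red) pools, 1 array each, sorted by the difference. All but Rpl3l had the higher value in the infarct pool as deposited. After centring on the housekeeping genes 12 of the 48 compared genes did, with the median of all genes at -0.37. Rps16 and Rpl39l, marked dim, lay under the median of both arrays.

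Without the 5 compared paralogs and Rps19bp1, which encodes a protein that binds RPS19, 42 genes of the ribosome itself remained, and the differences of 33 of them lay between 0.1 and 0.4. Their middle 50% ran from 0.21 to 0.36, and their SD of 0.19 was smaller than the SD of 0.48 over all genes. The disagreement between probe sets of the same gene, pooled as an SD, was 0.15 over the 20 members with at least 2 bright probe sets and 0.23 over 5190 genes of the array. The SD of 0.19 among the 42 genes lay between these values. It was taken at the brightest probe set of each gene, while the scatter between probe sets also counts dimmer ones. Among the dimmer ones, a probe set of Rpl13a gave 1.07, one of Rps9 0.75 and one of Rps24 0.68. The spread and the scatter were thus not measured at like signal, and their sizes do not show whether members differed from each other. The SD between probe sets covers the probes and not the mice, whose spread is unknown here.

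Both subunits were shifted. The 20 compared genes of the small subunit had a median of 0.27, with a sham median of 13.28 and an infarct median of 13.53. All of them lay above 0, beside 49.5% of all genes. The 22 genes of the large subunit had a median of 0.32 and also lay above 0 throughout. Whether the subunits differed was not tested. Both medians lie below 0 once the 0.37 of the housekeeping genes is subtracted.

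The largest positive difference was that of Rpl14, a large subunit protein, with 6.56 in the sham and 7.54 in the infarct pool, a difference of 0.97 (1.96-fold). Rps25, a small subunit protein used in initiation at internal ribosome entry sites, followed with 7.62 and 8.37 (difference 0.75). Rpl12, which lies at the base of the stalk of the large subunit, had 6.97 and 7.65 (0.68). Each of these genes was read by 1 singly named probe set, and all of these were far dimmer than the probe sets of most members. With the filter on dim probe sets at the 75th percentile, Rpl14 and Rpl12 were no longer compared. Then 5 of 44 members were at least 0.5 higher, and the share of all genes was not counted under that filter. Rps6, the small subunit protein phosphorylated by S6 kinase, had 8.76 in the sham and 9.37 in the infarct pool (0.61), again at a probe set of moderate signal.

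Among members with a mean log2 value of at least 12, Rpl41, which encodes a very short basic peptide, had the largest difference, with 13.22 in the sham and 13.81 in the infarct pool (0.59). Rpsa, a small subunit protein also known as the laminin receptor precursor, had 12.89 and 13.42 (0.53), and Rps26, which lies near the exit of the mRNA channel, had 12.85 and 13.31 (0.46). All stayed below 2-fold, and the second bright probe set of Rpl41 gave 0.37.

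At the other end, Rps27 hardly differed, with 6.93 in the sham and 6.95 in the infarct pool (0.015), read by 1 probe set of low signal. Rps29 had 14.20 and 14.30 (0.098), Rpl39, the small protein that lines the exit tunnel, 7.75 and 7.86 (0.12), and Rps2, at the mRNA entry site, 13.52 and 13.64 (0.12). Rpl27a (0.12), Rps14 (0.12) and Rplp2 (0.17) completed the lower end above 0. These differences are below the SD of 0.23 between probe sets of a gene over the whole array, and that of Rplp2 is above the SD of 0.15 over the members. They all lie below 0 after centring on the housekeeping genes.

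Rpl3l stood apart from all other members. The sham value was 11.54 and the infarct value 10.00, a difference of -1.54 (2.91-fold lower), and it ranked 21st from the lowest of the 11961 genes compared. The direction held in every scaling run, with values from -1.91 (housekeeping genes) to -1.23 (hybridisation controls). The gene was read by 1 probe set, so that no second probe set bears on the value. Rpl3, the general form of the protein, had no singly named probe set and was not compared. In RNA of heart tissue, fewer cells of a type and less RNA per cell cannot be told apart, and which cells carried the difference was not tested. Markers of cardiomyocytes were among the brightest probe sets of both pools (12.62 to 14.89 over Myh6, Tnnt2, Tnni3, Actc1, Ryr2 and Pln), and their differences ran from -0.39 to 0.055, with a median of -0.17.

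The other compared paralogs were higher in the infarct pool, but Rps27l and Rpl7l1 lie below 0 when the arrays are centred on the housekeeping genes. Rpl22l1, the paralog of Rpl22, had 11.61 in the sham and 12.35 in the infarct pool (0.74, 1.67-fold), the largest positive difference of any paralog. Its general form Rpl22 had 13.15 and 13.36 (0.21), so that the difference of the paralog was 0.53 above it, whatever offset is taken for the arrays. That gap is more than the SD between probe sets of a gene, and it rests on 1 probe set of Rpl22l1.

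Rps27l, the p53-inducible paralog of Rps27, had 11.10 in the sham and 11.45 in the infarct pool (0.35), and its 3 probe sets ran from 0.27 to 0.36. Its difference was 0.34 above that of Rps27, but the value of Rps27 comes from a probe set of low signal. Rps4l, a paralog of Rps4x, had 9.51 and 9.93 (0.41, beside 0.31 for Rps4x). Rpl7l1, a relative of Rpl7, had 9.02 and 9.23 (0.21, beside 0.31 for Rpl7). Rpl39l lay under the median of both arrays (5.23 and 5.40), and Rps19bp1 differed by 0.37. For the pairs of Rps4l and Rpl7l1 the gap to the general form (0.10 and -0.099) was within the scatter of probe sets.

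Groups of members with a shared role were small, and their values are given as a description. Of the stalk proteins, which recruit the translation factors, Rplp0 had 13.67 in the sham and 13.87 in the infarct pool (0.20), close to Rplp2 (0.17). Along the exit tunnel, Rpl35 (0.40), Rpl4 (0.33) and Rpl19 (0.31) lay above the lower value of Rpl39. Rpl11, which together with 5S RNA binds MDM2 when ribosome assembly fails, had 12.66 and 13.05 (0.39). The genes mutated in Diamond-Blackfan anaemia, an inherited failure of red cell production, had a median of 0.28 over 6 members, from 0.18 (Rps24) to 0.46 (Rps26), with Rps19 at 0.31, Rps10 at 0.25 and Rps7 at 0.22. Rps3, at the mRNA entry site, differed by 0.32, and Rpl13a, which takes part in the silencing of inflammatory transcripts, by 0.36. Fau, which encodes a ubiquitin-like protein fused to a small subunit protein and is not caught by the rule on symbols, differed by 0.23 (12.23 and 12.47). After centring on the housekeeping genes, Rpl35, Rpl11 and Rps26 alone of the members named in this paragraph lie above 0.

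Separate probe sets of a gene mostly gave the same sign. In 19 of the 20 members with at least 2 bright probe sets, all of these lay above 0. The exception was Rpl22, where a dimmer probe set gave -0.076 and the others 0.19 and 0.21. The widest range was that of Rpl13a, with 4 probe sets from 0.31 to 1.07, the brighter ones at the low end. Rps9 ran from 0.21 to 0.75 and Rps24 from 0.16 to 0.68, in both cases because 1 probe set of low signal differed far more than the bright ones. In Rpl41 (0.32 to 0.59) it was the brightest probe set that differed most, and in Rps3 (0.095 to 0.32) the dimmest that differed least. Thus there was no single relation of signal to difference within genes. Tight groups were formed by Rpl35 (5 probe sets, 0.36 to 0.42), Rps28 (3, 0.28 to 0.30) and Rps29 (3, 0.098 to 0.17).

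**Figure D2:**
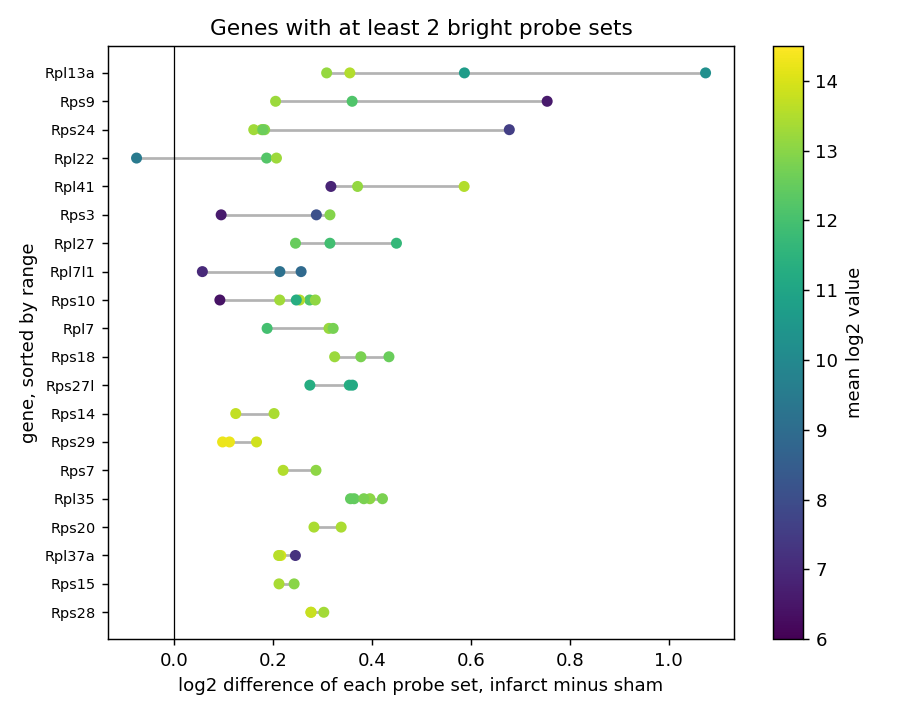
Log2 difference (infarct minus sham) of each bright probe set of the 20 ribosomal protein genes with at least 2 of them, 1 point per probe set, coloured by its mean log2 value in both pools. Rpl13a spans 0.31 to 1.07, while Rpl35 spans 0.36 to 0.42, and a single probe set, of Rpl22, lies below 0.

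Probe sets of ribosomal proteins are among the brightest of the array, and many can bind more than 1 transcript. In the sham pool, 28 of the 42 genes of the ribosome itself lay at or above the 99th percentile of the array. Over these 42 genes, which share both arrays, the difference tended to be smaller at higher mean signal (Pearson's r = -0.40, Spearman's rho = -0.37, across genes and without replicates). The 34 genes with a mean of at least 12 had differences from 0.098 to 0.59, and the 7 genes under 10 had differences from 0.015 to 0.97. Other genes as bright, 406 with a mean of at least 12, had a median of -0.16 and an SD of 0.45. Of these, 151 (37.2%) lay above 0, beside 49.5% of all genes. Whether signal level bears on the shift of the members was not tested. Of the 92 bright probe sets of the members, 38 had identifiers ending in _x_at, which can bind several transcripts, and their median was 0.29. It was 0.32 over the 27 ending in _a_at, 0.21 over the 3 ending in _s_at and 0.25 over the 24 with no suffix. Those 24 were dimmer, with a sham median of 8.40 beside 12.96 for the 38 ending in _x_at.

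A further 110 probe sets listed a ribosomal protein symbol together with other symbols, mostly of predicted genes, and none of them was assigned to a gene. Their values were nevertheless of the same kind. Of 98 that were bright enough, 96 lay above 0, beside 49.5% of all genes, with a median of 0.29 and a range from -0.061 to 1.00. At least 0.5 higher were 11, a share near the 12.7% of all genes. Both percentages count genes at their brightest probe set, and no share was counted over all probe sets.

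**Figure D3:**
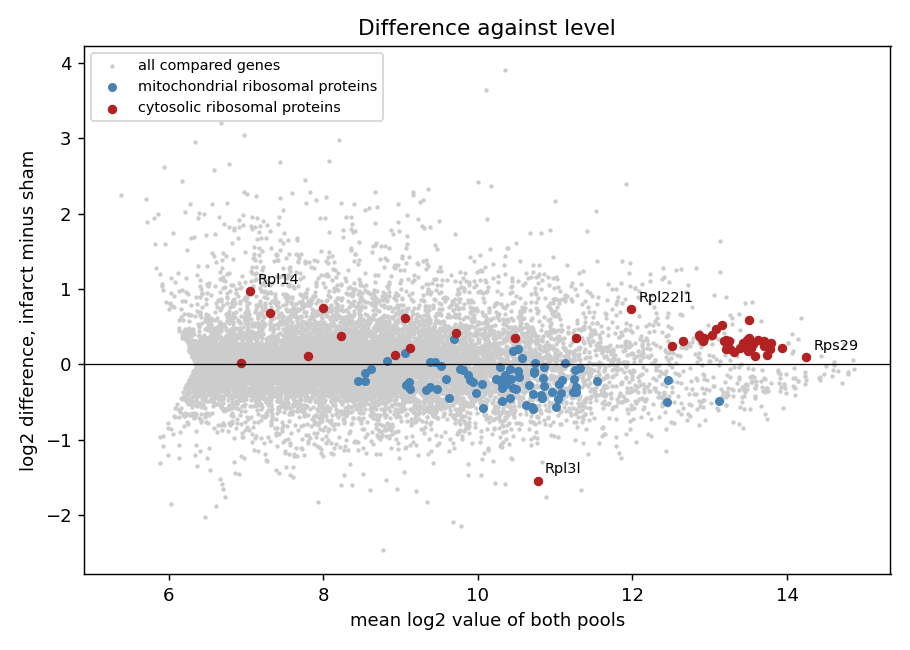
Log2 difference (infarct minus sham) against the mean log2 value of both pools, 1 point per gene, for the 11961 genes compared (grey), 48 cytosolic (red) and 76 mitochondrial (blue) ribosomal protein genes. Most cytosolic members form a tight group at high signal just above 0, Rpl3l lies far below at -1.54, and the mitochondrial genes lie mostly below 0 on the deposited scale.

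The genes of the mitochondrial ribosome, which makes the few proteins encoded by mitochondrial DNA, had lower differences than those of the cytosolic ribosome. On the deposited scale the medians had opposite signs, while both were below 0 with the housekeeping genes as zero (-0.60 and -0.060) and both above 0 with the hybridisation controls as zero (0.088 and 0.62). As deposited, the mitochondrial median was -0.23 over 76 genes, none of them too dim. Above 0 lay 10 of them (13.2%), beside 49.5% of all genes. The medians of the large and small subunit were -0.23 and -0.22. The lowest were Mrpl55 (11.01 in the sham and 10.42 in the infarct pool, -0.59), Mrpl14 (-0.57) and Mrps24 (-0.57). The highest were Mrps18b (0.34), Mrpl52 (0.20) and Mrpl17 (0.17). In all scalings run, the median of the mitochondrial list was below that of the cytosolic list.

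The factors that work with the ribosome lay in between. The 16 elongation and termination factors and nascent chain proteins had a median of 0.24, and 13 lay above 0 (81.25%, beside 49.5% of all genes). Eef1e1, a subunit of the synthetase complex, was highest (0.56), followed by the termination factor Gspt1 (0.53) and the recycling factor Abce1 (0.43). Lowest were Eef2k, the kinase that slows elongation (8.93 in the sham and 8.44 in the infarct pool, -0.48), the muscle form of the elongation factor, Eef1a2 (-0.28), and Eef1d (-0.035).

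The 36 initiation factors had a median of 0.13 and ran from -0.45 to 1.32, with 26 above 0 (49.5% of all genes) and 6 at least 0.5 higher, a share near the 12.7% of all genes. Eif1a, which helps to place the ribosome on the start codon, had 8.31 in the sham and 9.63 in the infarct pool (1.32). Pabpc1, the poly-A binding protein, differed by 0.77 and Eif6, which keeps the large subunit from joining too early, by 0.74, although the other probe set of Eif6 gave 0.063. Eif4a2 (-0.45), Eif5b (-0.33) and Eif2b4 (-0.23) were lowest. With the housekeeping genes as zero, both lists of factors had medians under 0 (-0.13 for elongation and termination, -0.24 for initiation).

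**Figure D4:**
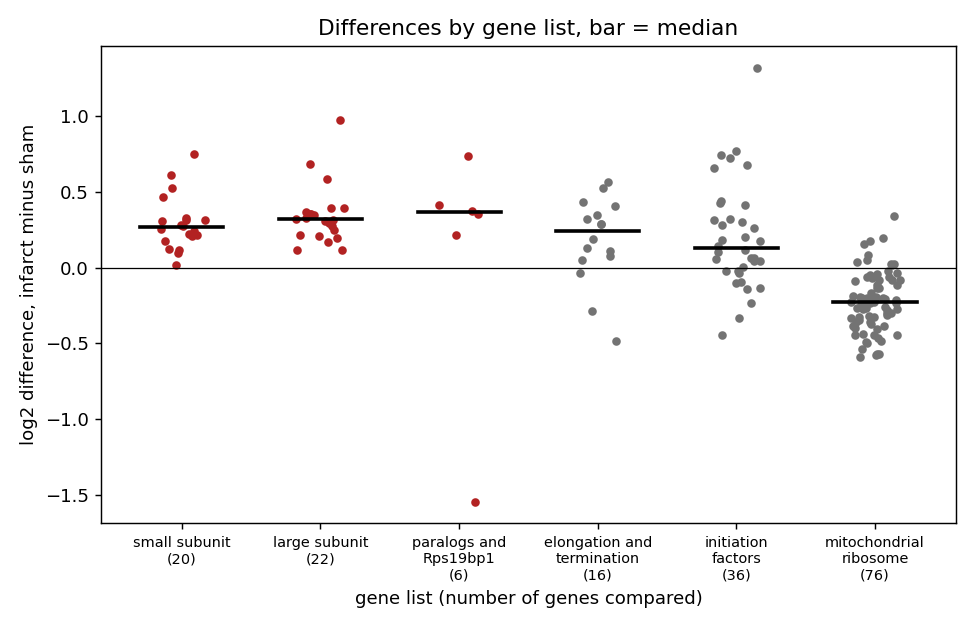
Log2 difference (infarct minus sham) of each compared gene, 1 point per gene, by list, with a bar at the median and the number of genes in parentheses. As deposited, the medians are 0.27 and 0.32 for the small and large subunits of the cytosolic ribosome, 0.24 for elongation and termination, 0.13 for initiation and -0.23 for the mitochondrial ribosome.

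Marker lists of other cell types differed by unequal amounts. The medians of dividing cells (2.21), neutrophils (1.54) and macrophages (0.55) were above that of the ribosomal protein genes, and those of endothelial cells (0.051) and fibroblasts (0.061) were below it. All 4 measured genes of dividing cells (Mki67, Top2a, Cdk1 and Bub1) differed by 2.05 to 2.44, all 6 macrophage markers by 0.23 to 1.24, and 3 neutrophil markers by 1.11 to 1.72. Sums on the linear scale were taken over the brightest probe set of each gene. The macrophage markers had 12329 in the sham and 17532 in the infarct pool. The markers of dividing cells had 616 and 2820, and the cardiomyocyte markers 134347 and 123379. Other bright probe sets of Myh6, Tnnt2, Ryr2 and Pln, which had lower differences, are not in these sums. Fibroblast markers went both ways (-0.34 to 0.65), as did endothelial ones (-0.15 to 0.56). Hba-a1, an erythroid gene, was dim in both pools, and the other erythroid markers differed by at most 0.049. The part of these cells in the shift of the ribosomal protein genes was not tested.

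**Figure D5:**
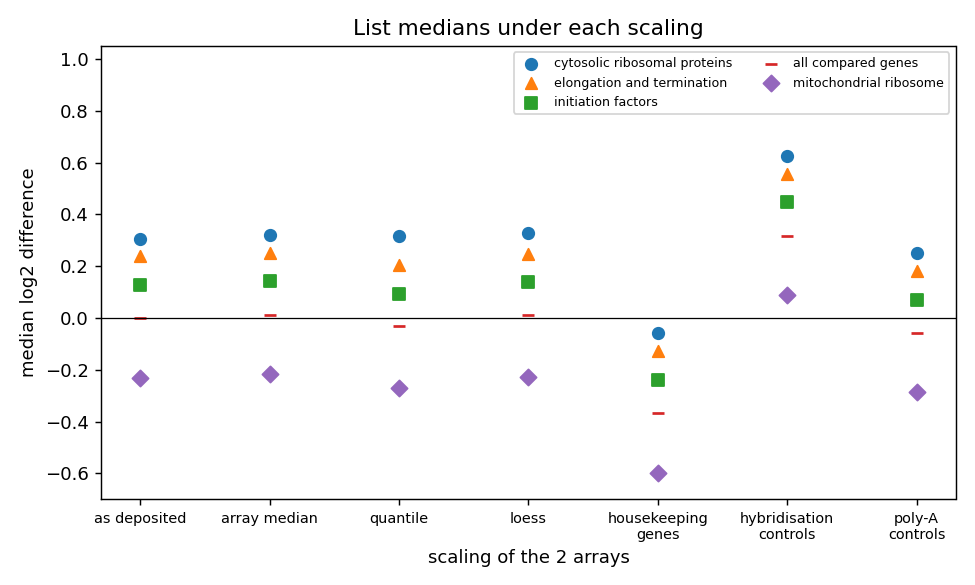
Median log2 difference (infarct minus sham) of each list under each scaling of the 2 arrays, 1 point per list. The cytosolic ribosomal proteins are the highest list throughout, from -0.060 (housekeeping genes) to 0.62 (hybridisation controls), and the mitochondrial ribosome is the lowest.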

How the data were processed

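Total RNA of heart tissue was extracted by the authors with ISOGEN and an RNeasy kit, pooled from 3 mice per group, labelled with biotin and hybridised to GeneChip Mouse Genome arrays. The authors deposited RMA output, which is on the log2 scale; the software version is not given in the sources used here. RMA gives both arrays nearly the same distribution, so a change in total mRNA cannot be seen. No scanner file was used here.

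Of 45101 probe sets, 34945 carried 1 gene symbol, 932 several, 9160 none, and 64 were controls. All 50 members matched RefSeq genes by Entrez identifier, with 0 symbols changed. For each gene the probe set with the highest mean stood in, and the gene was compared if this reached the 50th percentile of either array. With 1 array per group no test was run; the number of arrays limits the precision. Members and lists were chosen with earlier results of these data known. Named were paralog pairs, role lists, the 8 highest and 8 lowest members, the 6 with the widest range between probe sets, and the 3 highest and 3 lowest genes of each comparison list. Rpl3, Rpl5, Rpl10, Rpl36a and Rpl36al had only probe sets that list several symbols, so that the planned contrast of Rpl3l with Rpl3 has no value. Promoter motifs were chosen after an exploratory look, in which a palindromic motif was also searched and dropped. The procedure was tested on simulated data. Python 3.11.15, numpy 2.4.6, pandas 2.3.3, scipy 1.17.1, statsmodels 0.14.6 (loess span 0.4) and matplotlib 3.10.9 were used.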

Additional observations from a re-analysis of the deposited data

How the results depend on the processing

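The alternatives covered the scaling of the arrays, the choice of probe set, the filter on dim probe sets (none, or the 75th percentile), and the members counted. Centring on the housekeeping genes turned the median of the members to -0.060, with 1 at least 0.5 higher and 12 above 0. Centring on the hybridisation controls raised it to 0.62, with 39 at least 0.5 higher. The median of all genes became -0.37 and 0.32 under these centrings, and their shares past the same limits were not counted. Without probe sets ending in _x_at, _s_at or _a_at, 21 genes could be compared, of which 20 lay above 0. Counting probe sets gave 11 at least 0.5 higher and 90 above 0 of 92, and no share was counted over all probe sets of the array. Without paralogs and Rps19bp1, 0 members were at least 0.5 lower. The housekeeping and hybridisation centrings add a constant to every gene that exceeds the scatter of probe sets, so all single values moved under them by construction. Under the other alternatives 1 value of the 33 named members moved by more than that scatter (an SD of 0.23), that of Rps24 (0.68 without the suffixed probe sets), and under none did a named member at or beyond 0.5 change sign. With 1 array per group no sample could be left out, and the spread between mice is unknown. No paired analysis was possible because each group has 1 array.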

Other observations

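The array also carries 3 control probe sets for 18S ribosomal RNA, the RNA of the small subunit; they stand for no gene and were not compared. On the deposited scale all were lower in the infarct pool, 8.62 and 8.32 at the 3' probe set, 8.73 and 8.31 in the middle, and 8.85 and 7.88 at the 5' probe set (sham and infarct), that is by -0.30, -0.43 and -0.97. Ribosomal RNA has no poly-A tail, and what these probe sets report after labelling of the RNA was not tested.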
